A study of Mus musculus with 6 samples.

Results

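The genes described here are 9 Toll-like receptor genes of the mouse and Cd14, the co-receptor that hands lipopolysaccharide to one of them. They are Tlr1, Tlr2, Tlr4 and Tlr6, whose receptors sit at the cell surface, and Tlr3, Tlr7, Tlr8, Tlr9 and Tlr13, whose receptors sit in endosomes. The members were chosen by symbol, by matching the Ensembl gene IDs of the count table to GENCODE vM21, and all 10 were found among the 21780 genes of the table. The table holds 3 further Toll-like receptor genes, Tlr5, Tlr11 and Tlr12, which are given beside them. All 10 members had enough counts to be tested.

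Toll-like receptors are pattern recognition receptors that bind microbial molecules through leucine-rich repeats and signal through a cytoplasmic TIR domain. Receptors of the surface class mainly bind bacterial and fungal wall components, and those of the endosomal class bind nucleic acids once cargo has been taken up and acidified. Signals pass through the adaptors MyD88 and TRIF to NF-κB and to interferon regulatory factors. In the pancreas, as in other tissues, macrophages, monocytes, dendritic cells and neutrophils express them in different combinations.

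The cells were CD45+CD11b+ leukocytes, that is haematopoietic cells bearing the myeloid integrin CD11b, sorted from the pancreas of wild-type C57BL/6 mice, which were 6 to 8 weeks old in the study. Mice received a single intraperitoneal injection of PBS, the buffer control, or of 1 mg of WGP, an insoluble whole β-glucan particle of yeast cell wall that is a ligand of Dectin-1, and the pancreas was taken 7 days later. No cell was restimulated before lysis. Poly-A RNA gave 3 libraries for PBS and 3 for WGP, and p-values measure the spread between these libraries. The study describes its samples as separate animals, while the labels say only that they were prepared in triplicate. The comparison of PBS with WGP asks how the receptor repertoire of pancreatic myeloid cells differed a week after the particle.

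Library totals ranged from 35334645 to 43341834 counts. Ptprc, which encodes CD45, lay between 949 and 1043 CPM in PBS and between 1536 and 1747 CPM in WGP. CPM here is TMM-scaled CPM, the count relative to the adjusted size of its library. Itgam, which encodes CD11b, lay between 189 and 254 CPM in PBS and between 379 and 418 CPM in WGP. Both genes of the sort gate were thus found in every library, and both were higher in WGP. Some libraries stood apart. PBS replicate 1 held the highest summed B cell markers (3033 CPM, against 463 to 760 CPM in the other PBS libraries and 143 to 266 CPM in WGP) and the lowest resident macrophage markers of the PBS group. WGP replicate 2 held 1803 CPM of fibroblast collagens and related genes, against at most 171 CPM elsewhere. Y-linked genes were read only in PBS replicates 2 and 3 (234 and 248 CPM by library totals, without TMM scaling) and were at or near 0 in the other 4 libraries. The sex of the cells thus differed between libraries, and Tlr7, Tlr8 and Tlr13 lie on the X chromosome. No WGP library held Y-linked genes above 0.0238 CPM. A model with a term for their presence therefore sets the WGP libraries against PBS replicate 1 alone and cannot tell Y-linked reads from that library.

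Of the 14429 protein-coding genes tested with edgeR's quasi-likelihood test, 14.4% passed, which means a p of 0.05 or less after Benjamini-Hochberg adjustment, 7.54% higher and 6.81% lower in WGP. Of the 10 members 8 passed: 7 rose and 1 fell. Cd14, Tlr1, Tlr2, Tlr4, Tlr6, Tlr9 and Tlr13 rose, Tlr7 fell, and Tlr3 and Tlr8 did not pass. A change that also reached an absolute log2 fold change of 1 was seen in 3 members (Tlr1, Tlr6 and Tlr13), where 9.49% of all genes tested did so. The groups did not overlap in CPM for 8 members, where 32.0% of all genes tested were separated in this way. The median log2 fold change of the members was 0.73, and that of all genes tested was -0.05. The members were picked as a family with earlier results of these data known, so these shares are a description.

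Tlr1 and Tlr6 are neighbours on the minus strand of chromosome 5 (GRCm38, 64924679 to 64933563 and 64952031 to 64960097), each with its whole coding sequence in 1 exon, and they are close copies. Their coding sequences, of 2385 and 2418 bases, share an unbroken run of 229 identical bases, at 64925537 to 64925765 in Tlr1 and at 64953828 to 64954056 in Tlr6. The middle 120 bases of that run are shown because a read of 75 bases that falls inside them cannot be given to either gene:
Tlr1 and Tlr6: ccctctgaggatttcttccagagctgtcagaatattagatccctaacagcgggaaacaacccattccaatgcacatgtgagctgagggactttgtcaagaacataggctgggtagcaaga
Of all windows of 75 bases in the transcripts of Tlr6, 9.25% also occur in Tlr1, and 10.6% of those of Tlr1 occur in another gene's transcripts. HTSeq leaves out reads placed at more than 1 site in its default setting, but the setting used is not given in the sources used here, so the counts of this pair are uncertain to about that share. Tlr3 shares 381 exon bases with the antisense gene Gm45542, which is not in the table, and the strand setting is not given, so reads of the pair cannot be told apart. The other 7 members share no window of this length with any other gene.

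The stretches of 250 bases before the start sites of 4 members, 3 of which (Tlr1, Tlr6 and Tlr9) rose, are shown next from RefSeq (GRCm38.p6), each 5′ to 3′ on the gene's strand. Capitals mark matches on either strand. The letters were AGGAAGT, a core of PU.1, the factor of myeloid identity. For NF-κB they were a strict form of its motif (GGGA and TTCC with a pair of free bases between them). The others were the interferon-stimulated response element (GAAA, a pair of free bases and GAAA again) and TGANTCA (AP-1, which reads the same on both strands). For Tlr6 the window belongs to the second of its entries, whose start lies within the intron of the GENCODE gene.
Tlr1, chr5:64933559-64933808, minus strand: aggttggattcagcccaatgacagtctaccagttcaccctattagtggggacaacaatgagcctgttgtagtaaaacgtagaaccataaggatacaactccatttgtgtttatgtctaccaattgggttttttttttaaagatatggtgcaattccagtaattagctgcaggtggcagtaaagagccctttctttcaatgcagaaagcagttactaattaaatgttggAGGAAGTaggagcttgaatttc
Tlr6, chr5:64959167-64959416, minus strand: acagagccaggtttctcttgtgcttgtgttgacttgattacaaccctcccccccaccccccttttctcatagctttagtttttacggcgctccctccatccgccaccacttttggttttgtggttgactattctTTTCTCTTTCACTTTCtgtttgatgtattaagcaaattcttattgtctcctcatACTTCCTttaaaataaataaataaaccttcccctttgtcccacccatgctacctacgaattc
Tlr9, chr9:106222348-106222597, plus strand: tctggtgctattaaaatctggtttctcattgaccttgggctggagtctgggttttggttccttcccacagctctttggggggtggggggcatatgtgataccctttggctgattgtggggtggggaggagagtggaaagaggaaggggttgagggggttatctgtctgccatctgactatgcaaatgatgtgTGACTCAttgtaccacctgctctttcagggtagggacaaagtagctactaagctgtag
Tlr8, chrX:167264330-167264579, minus strand: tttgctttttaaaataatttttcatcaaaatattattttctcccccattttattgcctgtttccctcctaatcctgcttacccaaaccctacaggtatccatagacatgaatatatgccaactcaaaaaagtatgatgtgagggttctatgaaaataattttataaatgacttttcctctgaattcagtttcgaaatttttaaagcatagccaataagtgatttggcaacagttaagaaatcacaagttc
Tlr1 holds the PU.1 core 22 bases before its start. The Tlr6 window holds a PU.1 core 62 bases and a pair of overlapping interferon elements 116 and 110 bases before its start, all on the opposite strand. Tlr9 holds the AP-1 letters 58 bases before its start, and Tlr8 holds none of the 4. Among the windows not shown, that of Tlr3 holds NF-κB letters 211 bases before its start. Those of Tlr2, Tlr13, the first entry of Tlr6 and the second of Tlr1 hold none of the letters searched. The Tlr2 window holds gggaattccc, which is close to the NF-κB letters, and other forms of that motif were not searched. The windows not shown lie in part within annotated exons of their genes. Of 250 bases, 178 are exonic for Tlr3, 159 for Tlr2, 71 for Tlr13, 49 for Tlr6 and 211 for Tlr1. Of the 32851 windows of the same length in the table, 7.69% hold the PU.1 core, 1.21% the NF-κB letters, 2.98% the interferon element and 6.75% the AP-1 letters. A match describes letters only. Promoters of Tlr4 and Tlr7 are named only.

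The 4 chosen surface receptors all rose. Tlr2, at chromosome 3 (83836272 to 83841767, minus strand), encodes the shared partner of the lipopeptide receptors, and it was read at 274, 337 and 324 CPM in PBS replicates 1 to 3 and at 680, 594 and 519 CPM in WGP. All WGP libraries lay above all PBS libraries, and the log2 fold change was 0.94 (SE 0.16, adjusted p = 0.00294, n = 3 per group by edgeR). Tlr1 encodes the partner of TLR2 for triacylated lipopeptides, and it was read at 54.4, 46.9 and 38.5 CPM in PBS and at 128, 116 and 147 CPM in WGP. Its log2 fold change was 1.48 (SE 0.18, adjusted p = 0.00033 by edgeR). Tlr6 encodes the partner of TLR2 for diacylated lipopeptides, and it was read at 9.08, 16.4 and 21.1 CPM in PBS and at 39.4, 38.4 and 47.8 CPM in WGP. The log2 fold change of Tlr6 was 1.43 (SE 0.30, adjusted p = 0.00918 by edgeR), with PBS libraries that varied more (39.0% coefficient of variation) than the WGP libraries (12.3%). Without PBS replicate 1, the lowest of them, the log2 fold change of Tlr6 was 1.16, and without PBS replicate 3 it was 1.72. The 3 genes that make up the TLR1/TLR2 and TLR2/TLR6 heterodimers thus passed together, and each passed under all 16 alternative settings.

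Tlr4, at chromosome 4 (66827584 to 66930284, plus strand), encodes the lipopolysaccharide receptor. It was read at 50.8, 67.1 and 78.4 CPM in PBS and at 93.3, 117 and 109 CPM in WGP, so the groups did not overlap, but PBS replicate 3 and WGP replicate 1 were close. The log2 fold change was 0.70 (SE 0.19, adjusted p = 0.0298 by edgeR). The call was lost without PBS replicate 1, PBS replicate 2, WGP replicate 2 or WGP replicate 3 (adjusted p = 0.051, 0.0934, 0.0873 and 0.0975 in turn by edgeR), with log2 fold changes from 0.55 to 0.72. Cd14, on chromosome 18, encodes the glycosylphosphatidylinositol-anchored protein that delivers lipopolysaccharide to TLR4 and MD-2 and also serves other receptors. It was read at 423, 586 and 571 CPM in PBS and at 1012, 821 and 766 CPM in WGP. The groups did not overlap, the log2 fold change was 0.72 (SE 0.18, adjusted p = 0.0223 by edgeR), and the call was lost without PBS replicate 2 or WGP replicate 1 (adjusted p = 0.0529 and 0.0974 by edgeR). Per kilobase of exon the ratio of Cd14 to Tlr4 was 23.4 to 28.01 in the PBS libraries and 22.5 to 34.8 in the WGP libraries, which overlap.

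Of the 5 endosomal receptors 2 rose, 1 fell and 2 did not pass. Tlr13, at chromosome X (106143204 to 106160493, plus strand), encodes a receptor of bacterial ribosomal RNA, and it was the steadiest member: 116, 118 and 120 CPM in PBS (1.74% coefficient of variation) and 256, 255 and 284 CPM in WGP. Its log2 fold change was 1.16 (SE 0.13, adjusted p = 0.000271 by edgeR), and it passed under all 16 alternatives. Tlr9, at chromosome 9 (106222598 to 106226883, plus strand), encodes the receptor of unmethylated CpG DNA, and it was read at 104, 106 and 118 CPM in PBS and at 204, 137 and 208 CPM in WGP. WGP replicate 2 was lower than the other WGP libraries but still above all PBS libraries. The log2 fold change of Tlr9 was 0.74 (SE 0.18, adjusted p = 0.02 by edgeR), and the call was lost without PBS replicate 2, WGP replicate 1 or WGP replicate 3 (adjusted p = 0.0864, 0.0859 and 0.0937 by edgeR).

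Tlr7 was the only member that fell. It lies on chromosome X (167304929 to 167330558, minus strand) beside Tlr8, encodes a receptor of single-stranded RNA, and was read at 128, 211 and 304 CPM in PBS and at 114, 99.6 and 124 CPM in WGP. PBS replicate 1 was close to the WGP libraries, and the PBS libraries spread over a coefficient of variation of 41.1%. The log2 fold change was -0.93 (SE 0.27, adjusted p = 0.0427 by edgeR), and it failed to pass under 8 of 16 alternatives. It was -1.19 without PBS replicate 1 (adjusted p = 0.00142 by edgeR) and -0.58 without PBS replicate 3 (adjusted p = 0.134 by edgeR). It also missed the threshold with limma-voom (adjusted p = 0.0642), with the filter of filterByExpr (adjusted p = 0.0579 by edgeR) and without PBS replicate 2 or any 1 of the WGP libraries (adjusted p from 0.0919 to 0.117 by edgeR). The value moved most with a term for Y-linked reads in the model, to -0.18 (adjusted p = 0.693 by edgeR), where PBS replicate 1 is the lone control.

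Tlr8, at chromosome X (167242696 to 167264329, minus strand), encodes a second receptor of RNA and its breakdown products. It was read at 54.5, 83.2 and 141 CPM in PBS and at 166, 131 and 145 CPM in WGP. PBS replicate 3 lay among the WGP libraries, so the groups overlapped, and the log2 fold change of 0.67 did not pass (SE 0.29, adjusted p = 0.174 by edgeR). Without PBS replicate 3 it was 1.10 (adjusted p = 0.00993 by edgeR), and without PBS replicate 1 it was 0.39 (adjusted p = 0.308 by edgeR). Tlr3, at chromosome 8 (45395665 to 45411080, minus strand), encodes the receptor of double-stranded RNA and is the member that signals through TRIF without MyD88. Its values were 26.4, 20.1 and 19.3 CPM in PBS and 17.7, 25.4 and 19.9 CPM in WGP, with a log2 fold change of -0.06 (SE 0.25, adjusted p = 0.921 by edgeR). The groups overlapped and the difference was smaller than their spread.

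**Figure D1:**
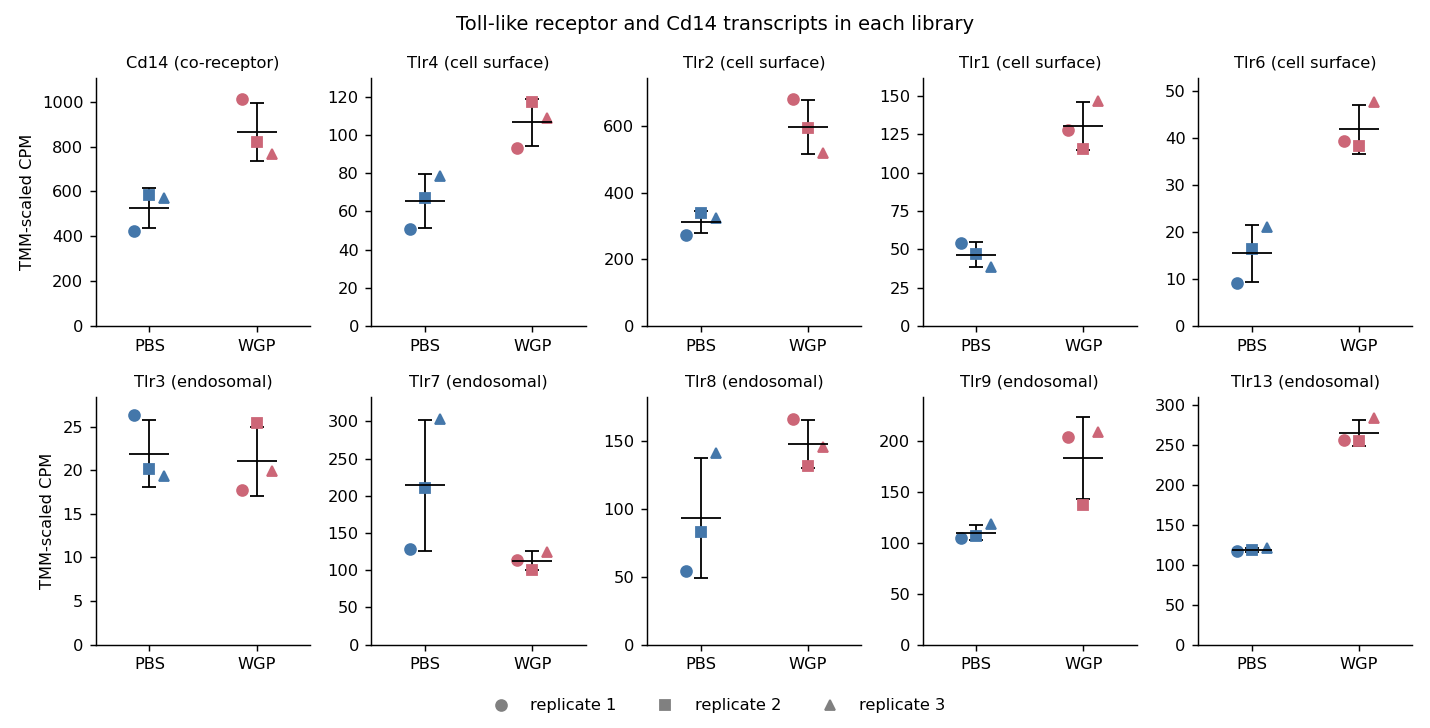
TMM-scaled CPM of the 10 genes (y axes, each from 0) in the 3 PBS and 3 WGP libraries, 1 panel per gene and 1 symbol per replicate, with the mean and SD of each group in black. The WGP libraries lay above all PBS libraries for Cd14, Tlr1, Tlr2, Tlr4, Tlr6, Tlr9 and Tlr13, below them for Tlr7, and overlapped with them for Tlr3 and Tlr8.

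The neighbours Tlr7 and Tlr8 changed places. Per kilobase of exon, Tlr7 was read at 2.06, 2.22 and 1.89 times the level of Tlr8 in PBS replicates 1 to 3 and at 0.604, 0.667 and 0.753 times in WGP. The ratio varied little within a group although both genes spread widely among the PBS libraries (coefficients of variation of 41.1% and 47.5%), and the groups did not overlap. Each of these ratios is taken within a library and does not depend on scaling. Against Tlr13, the ratio of Tlr7 was 1.16 to 2.66 in PBS and 0.412 to 0.471 in WGP.

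Among the 9 chosen receptors, the mean log2 fold change was 1.14 over the 4 surface genes and 0.32 over the 5 endosomal genes, a difference of 0.82, where the same contrast of log2(CPM + 1) levels varied between libraries of a group by an SD of 0.09. All 4 surface genes rose, and of the endosomal genes 2 rose, 1 fell and 2 did not pass. Much of the difference is Tlr7: without it the endosomal mean was 0.63 and the difference 0.51. Summed per kilobase, surface transcripts were 119, 142 and 139 CPM per kilobase in PBS and 291, 263 and 248 in WGP, a ratio of the means of 2.01. Endosomal transcripts were 109, 137 and 179 CPM per kilobase in PBS and 196, 164 and 201 in WGP, with a ratio of the means of 1.32 and overlapping groups. The surface sum was 0.773 to 1.09 times the endosomal sum in PBS and 1.24 to 1.60 times in WGP, without overlap. Tlr2 alone made up 69.3% to 78.6% of the surface sum in every library, so the summed level of that class is mostly Tlr2. In the endosomal sum the share of Tlr7 was 28.8% to 41.5% in PBS and 14.3% to 15.2% in WGP, and that of Tlr13 was 15.6% to 24.9% in PBS and 30.3% to 36.0% in WGP.

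**Figure D2:**
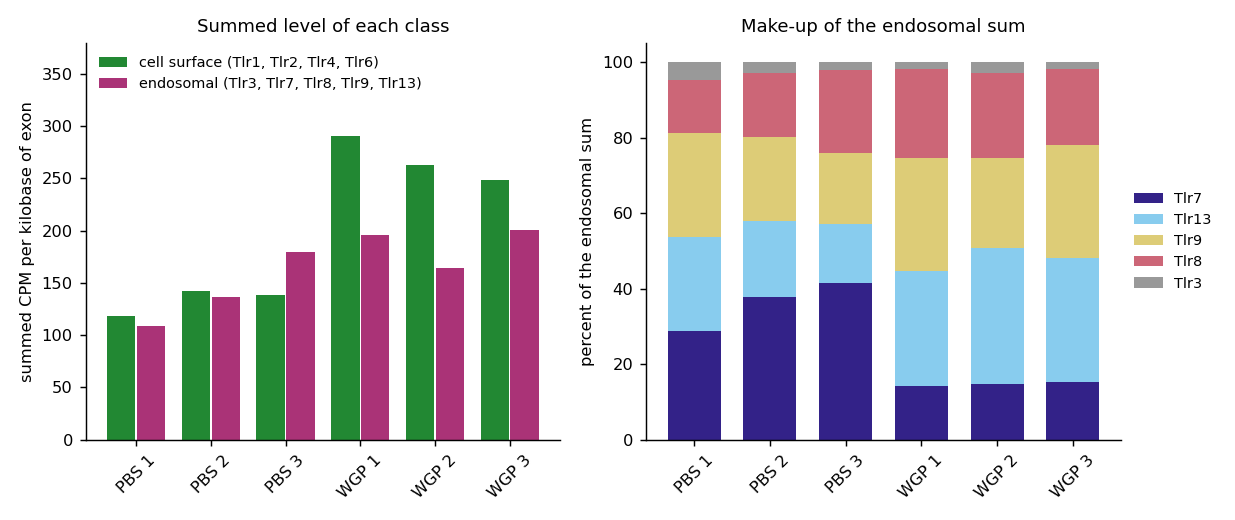
Left, summed CPM per kilobase of exon of the cell-surface (green) and endosomal (purple) receptor genes in each library. Right, the percentage of the endosomal sum taken by each gene. The surface sum exceeded the endosomal sum in the 3 WGP libraries by 1.24 to 1.60 times, and the share of Tlr7 did not exceed 15.2% in any of them.

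The contrast between classes rests on which receptors are counted. Tlr5, the surface receptor of flagellin, fell from 30.4, 68.3 and 94.8 CPM in PBS to 25.4, 24.7 and 27.1 CPM in WGP (log2 fold change -1.33, SE 0.34, adjusted p = 0.0255 by edgeR). Tlr11 and Tlr12, endosomal receptors of profilin, rose from low levels: Tlr11 was read at 5.10, 9.37 and 10.9 CPM in PBS and 16.3, 18.98 and 24.5 CPM in WGP (1.23, SE 0.36, adjusted p = 0.0437 by edgeR), and Tlr12 at 3.36, 1.64 and 1.96 CPM in PBS and 9.69, 8.59 and 18.03 CPM in WGP (2.38, SE 0.52, adjusted p = 0.0119 by edgeR). With these genes added, the mean log2 fold change was 0.65 over 5 surface genes and 0.74 over 7 endosomal genes, and the difference between the classes was -0.10. Thus the direction of the class contrast turned when all 12 receptor genes of the table were used. The calls of Tlr5, Tlr11 and Tlr12 were lost under 7, 6 and 3 of the 16 alternatives. Tlr5 was at -1.67 without PBS replicate 1 (adjusted p = 0.000289 by edgeR) and at -0.94 without PBS replicate 3 (adjusted p = 0.0887 by edgeR).

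**Figure D3:**
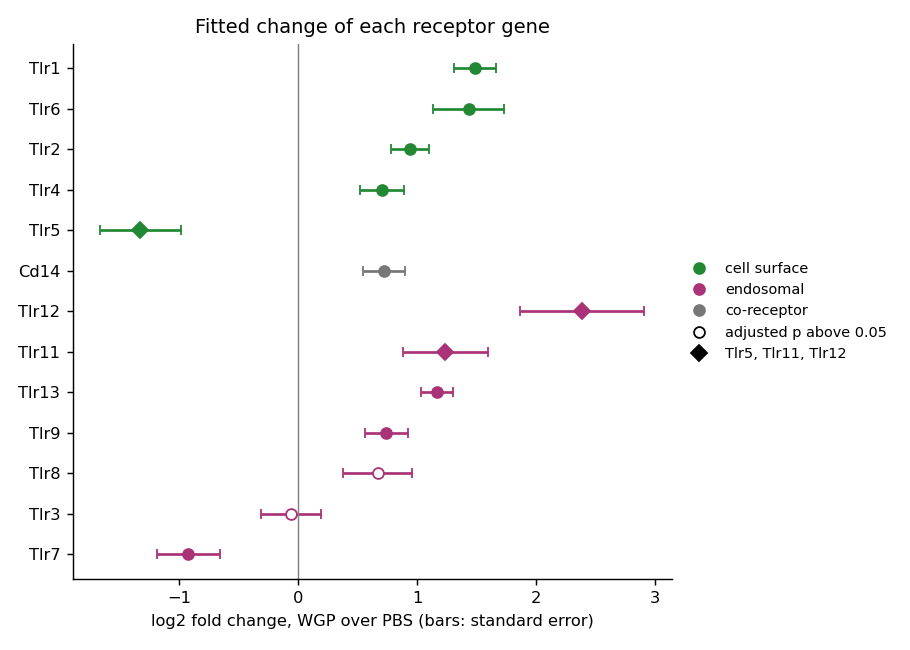
Log2 fold change of WGP over PBS (x axis) with its standard error for each receptor gene, by class; open symbols did not pass at an adjusted p of 0.05, and diamonds are the receptor genes outside the chosen 10. Tlr1, Tlr2, Tlr4 and Tlr6 lay between 0.70 and 1.48, while the endosomal members ranged from -0.93 for Tlr7 to 1.16 for Tlr13.

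In level per kilobase of exon, Cd14 stood first and Tlr2 next in both groups. In PBS, Cd14 was at 304 ± 52.2 CPM per kilobase (SD, n = 3), Tlr2 at 103 ± 11.1 and Tlr7 at 52.5 ± 21.6, followed by Tlr9 at 31.5, Tlr13 at 27.5, Tlr8 at 25.9, Tlr1 at 13.9, Tlr4 at 11.8, Tlr3 at 4.21 and Tlr6 at 4.16. In that order the ranges of Tlr7 and Tlr9, of Tlr13 and Tlr8, of Tlr8 and Tlr1, of Tlr1 and Tlr4 and of Tlr3 and Tlr6 overlapped. Within each PBS library, however, Tlr7 lay above Tlr9 (31.35 against 30.05, 51.62 against 30.52 and 74.45 against 33.94). The other overlapping neighbours did not keep their order in every PBS library. In WGP, Cd14 was at 500.2 ± 74.5 CPM per kilobase (SD, n = 3), Tlr2 at 198 ± 26.8 and Tlr13 at 61.5 ± 3.86, followed by Tlr9 at 52.6, Tlr8 at 41.2, Tlr1 at 38.9, Tlr7 at 27.6, Tlr4 at 19.2, Tlr6 at 11.2 and Tlr3 at 4.04. Tlr7 thus moved from the third place to the seventh, and of the neighbours in this order Tlr13 and Tlr9, Tlr9 and Tlr8, and Tlr8 and Tlr1 overlapped. Within each WGP library Tlr13 lay above Tlr9 and Tlr9 above Tlr8, while Tlr8 and Tlr1 did not keep their order.

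Markers of cell types moved with these genes. Of 7 general myeloid genes, which include Ptprc and Itgam, 5 rose and none fell. Their sums were 10040 to 16040 CPM in PBS and 22980 to 24540 CPM in WGP, much of them Lyz2. The log2 fold changes were 0.71 for Ptprc, 0.79 for Itgam, 0.59 for Fcer1g, 0.53 for Tyrobp and 1.21 for Lyz2, while Cd68 and Csf1r did not pass. In bulk samples, fewer cells of a type and less RNA per cell cannot be told apart. Of 10 markers of resident macrophages 9 fell, and their sum was 4767 to 11810 CPM in PBS and 977 to 1294 CPM in WGP. Among them Cd163, a haemoglobin scavenger receptor, went from 602, 1320 and 1990 CPM to 31.3, 73.8 and 67.6 CPM. Within the PBS group, Tlr4, Tlr5, Tlr6, Tlr7, Tlr8, Tlr9, Tlr11 and Tlr13 were lowest in replicate 1 and highest in replicate 3, though Tlr13 only from 116 to 120 CPM. Of these genes 5 rose, 2 fell and Tlr8 did not pass in WGP against PBS. The resident macrophage markers had this order (4767, 9210 and 11810 CPM). So did the type 2 conventional dendritic cell list (512, 778 and 908 CPM), the general myeloid genes (10040, 15530 and 16040 CPM) and the whole Ly6C-high monocyte list. Markers of B cells, neutrophils, NK cells, plasmacytoid and type 1 conventional dendritic cells stood in the opposite order, as did Tlr1 and Tlr3. Of 8 markers of Ly6C-high monocytes 5 rose and 1 fell, with sums of 2671 to 4232 CPM in PBS and 3865 to 4439 CPM in WGP. F13a1, the gene that fell, took much of the PBS sums, and without it, a choice made after its values were seen, the other 7 summed to 1336, 959 and 758 CPM in PBS and to 4004, 3518 and 3936 CPM in WGP. Ccr2, their chemokine receptor, was at 224, 369 and 407 CPM in PBS and at 1497, 1061 and 1386 CPM in WGP. Of 9 markers of plasmacytoid dendritic cells, which are known for Tlr7 and Tlr9, 3 fell and none rose, with sums of 473 to 685 CPM in PBS and 226 to 240 CPM in WGP. Of 7 B cell markers 6 fell and none rose. Of 10 neutrophil markers 2 rose and 1 fell, with sums of 2308 to 6006 CPM in PBS and 2587 to 2676 CPM in WGP. Of 8 pancreatic acinar markers 7 fell, with sums of 1169 to 4476 CPM in PBS and 294 to 520 CPM in WGP. Of 7 markers of Ly6C-low monocytes 2 rose and 2 fell, and of 6 markers each of type 1 and type 2 conventional dendritic cells 2 fell and none rose. In the lists for T cells, NK cells, eosinophils, mast cells and basophils, islet, endothelial, fibroblast and mesothelial cells at most 1 gene per direction passed. Only Cpa3, Mcpt4 and Chga of these lists were at 0 in all libraries. The part of these cell types in the values of the receptors was not tested.

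**Figure D4:**
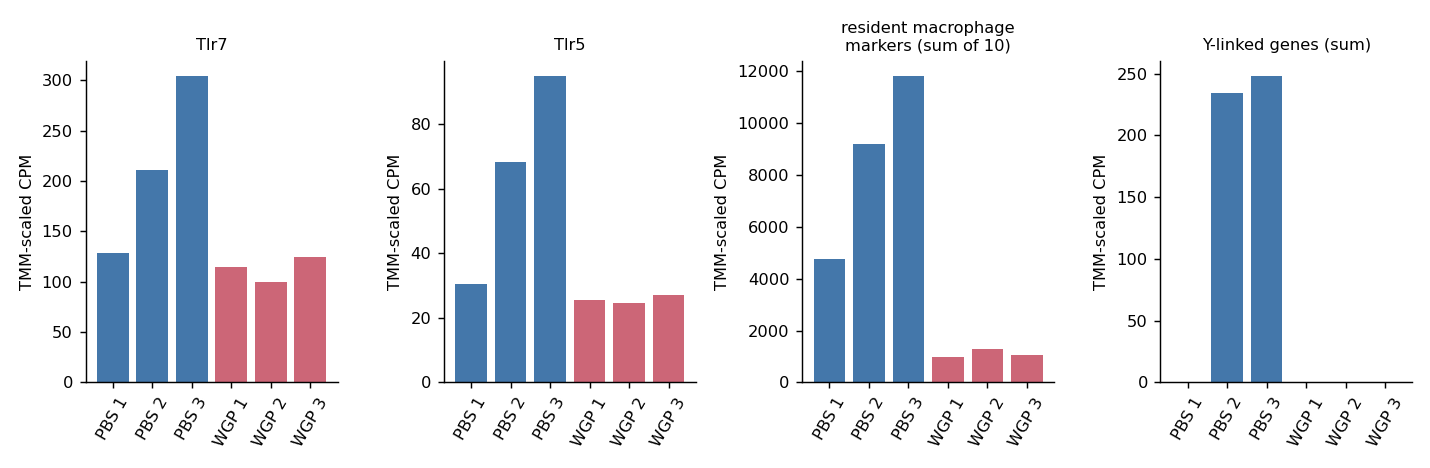
TMM-scaled CPM (y axes, from 0) of Tlr7, Tlr5 and the sum of 10 resident macrophage markers in each library, beside the summed Y-linked genes. The Y-linked values are CPM by library totals without TMM scaling, although their axis carries the same label. PBS replicate 1 lay nearest to the WGP libraries in Tlr7, Tlr5 and the macrophage markers, and like them held no Y-linked counts above 0.0238 CPM.

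The counts of members were also taken without single libraries. Without PBS replicate 1, 6 members rose and 1 fell, where 7.9% of all genes tested rose. Without WGP replicate 2, 6 rose and none fell by the test, where 6.27% of all genes rose. Without PBS replicate 2, 4 members rose (Tlr1, Tlr2, Tlr6 and Tlr13) and none fell, and the share of all genes that rose also went down, from 7.54% to 5.35%. Without WGP replicate 1 or 3, 5 members rose and none fell, where 5.57% and 5.41% of all genes rose. Without PBS replicate 3, 8 rose and none fell, with Tlr8 added, where 6.73% of all genes rose. With the term for Y-linked reads, that is against PBS replicate 1 as the lone control, assumed to vary like the other libraries, 7 rose and none fell, where 6.76% of all genes rose. Tlr8 was at 1.44 (adjusted p = 0.0146 by edgeR) and passed. Tlr9 was at 0.81 (adjusted p = 0.0766 by edgeR) and did not. Tlr6 was at 2.20 and passed (adjusted p = 0.00271 by edgeR). Of the receptors outside the 10, the log2 fold change of Tlr5 was -0.24 (adjusted p = 0.628 by edgeR) and the log2 fold change of Tlr12 was 1.85 (adjusted p = 0.154 by edgeR), and neither passed.

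Genes that act with the receptors were read from 8 lists of 104 genes in all, of which 101 were tested. Of these 29 rose, 14 fell and 58 did not pass, where 14.4% of all genes tested passed. Their median log2 fold change was 0.17. The 2 genes of the inhibitor list named Nrdp1 and Lilrb3 matched no symbol of the table, and Fgb was below the filter on low counts.

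Of 7 partners of the lipopolysaccharide and lipopeptide receptors 2 rose and 1 fell. Ly96, which encodes MD-2, the part of the TLR4 complex that binds lipid A, was at 16.5, 29.6 and 20.4 CPM in PBS and 20.6, 19.4 and 19.6 CPM in WGP (log2 fold change -0.16, SE 0.27, adjusted p = 0.773 by edgeR). Itgam and Itgb2, the chains of the CD11b/CD18 integrin, rose with log2 fold changes of 0.79 and 1.22. Cd36, a scavenger receptor that helps the TLR2/TLR6 pair, fell from 501, 874 and 1100 CPM to 99.4, 244 and 129 CPM (-2.39, SE 0.36, adjusted p = 0.00151 by edgeR). Cd180 and Ly86, whose products form a receptor complex related to TLR4 and MD-2, had log2 fold changes of 0.33 and 0.16 and did not pass.

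Of 15 genes that bring receptors to endosomes, cut them or clear their ligands, 2 rose, 1 fell and 12 did not pass, a share near the 14.4% of all genes tested. The median log2 fold change was 0.0041. Unc93b1, the chaperone that the endosomal receptors need to leave the endoplasmic reticulum, was at 1046, 1407 and 1457 CPM in PBS and 1509, 1352 and 1545 CPM in WGP (0.17, SE 0.17, adjusted p = 0.558 by edgeR). Among the proteases that cut the ectodomains, Ctss rose from 1086, 1337 and 1425 CPM to 3353, 4831 and 4107 CPM (1.68, SE 0.19, adjusted p = 0.00024 by edgeR) and Ctsk rose from at most 2.06 CPM to between 6.49 and 20.7 CPM. Lgmn, which encodes asparagine endopeptidase, fell with a log2 fold change of -0.70 (SE 0.20, adjusted p = 0.0398 by edgeR). That call was lost under 6 of 16 alternatives.

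Of 6 adaptors 2 rose, 1 fell and 3 did not pass. Myd88 was at 109, 96.9 and 101 CPM in PBS and at 232, 242 and 211 CPM in WGP (1.16, SE 0.14, adjusted p = 0.000333 by edgeR) and passed under all 16 alternatives. Tirap, which bridges TLR2 and TLR4 to MyD88, was at 17.8, 24.7 and 21.1 CPM and at 30.5, 41.6 and 35.6 CPM (0.76, SE 0.22, adjusted p = 0.0474 by edgeR), and its call was lost under 11 of 16 alternatives. Ticam1, which encodes TRIF, was at 61.8, 77.6 and 64.4 CPM in PBS and 51.3, 49.6 and 37.3 CPM in WGP. Its libraries were separated, but the log2 fold change of -0.56 did not pass (SE 0.19, adjusted p = 0.0761 by edgeR), except with library totals in place of TMM scaling. Ticam2, which bridges TLR4 to TRIF, and Pik3ap1 had log2 fold changes of 0.26 and 0.47 and did not pass, except Ticam2 with the term for Y-linked reads and Pik3ap1 with that term and with DESeq2. Sarm1, the TIR protein that degrades NAD, held 335 counts over the PBS libraries and 0 over the WGP libraries, at least 120.7-fold lower against a floor of 3 counts over the group. Its call was lost under 3 of 16 alternatives.

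Downstream, 3 of 20 kinases and ubiquitin ligases rose and 1 fell, a share not far from the 14.4% of all genes tested that passed. Ikbke, an interferon-linked kinase, was at 57.1, 54.0 and 47.2 CPM in PBS and at 455, 452 and 499 CPM in WGP (3.15, SE 0.15, adjusted p = 3.69e-06 by edgeR). Tbk1, its relative, rose by 0.71 and Irak2 by 0.63 on the log2 scale, and Map3k8, which links IKK to ERK, fell by 1.10. Of the transcription factors 4 of 10 rose (Irf1, Irf5, Irf7 and Irf8, with log2 fold changes of 2.30, 0.54, 1.96 and 0.96) and 2 fell (Rel and Jun, with -1.70 and -1.90). The Irf5 call was lost under 7 of 16 alternatives. The others did not pass. Among them Nfkb1, another subunit of NF-κB, had a log2 fold change of 0.48 with separated groups (adjusted p = 0.0925 by edgeR), and Rela, Fos and Irf3 had 0.16, -0.23 and -0.20.

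Inhibitors of the pathway moved both ways. Of 14 tested, 4 rose and 2 fell. Irak3, which encodes the pseudokinase IRAK-M, rose from 39.3, 52.5 and 54.7 CPM to 143, 135 and 148 CPM (1.54, SE 0.17, adjusted p = 0.000187 by edgeR). Tnip1, Trim30a and Socs1 rose with log2 fold changes of 1.74, 1.14 and 3.69. Tnfaip3, which encodes the deubiquitinase A20, and Nfkbia, which encodes IκBα, both of them NF-κB targets themselves, fell with log2 fold changes of -0.63 and -0.66 (adjusted p = 0.0424 and 0.0146 by edgeR).

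Of 9 host proteins described as receptor ligands and tested, 2 rose and 1 fell. Saa3, an acute phase protein, rose from 5.85, 3.52 and 15.0 CPM to 384, 1233 and 780 CPM, and Vcan, a proteoglycan that is also on the monocyte list, from 14.8, 9.73 and 10.9 CPM to 136, 256 and 131 CPM. Hspd1, a mitochondrial chaperone, fell by 0.92 on the log2 scale. Of 20 genes commonly induced through the receptors, 10 rose and 5 fell. Il1b rose from 322, 352 and 351 CPM to 3557, 1960 and 2651 CPM (2.99, SE 0.22, adjusted p = 2.2e-05 by edgeR), and Il1rn, Acod1, Ptgs2 and Marcksl1 rose with log2 fold changes of 4.19, 3.67, 3.02 and 1.52. Il10 fell from 27.6, 27.9 and 29.3 CPM to 1.57, 2.75 and 2.54 CPM (-3.62, SE 0.33, adjusted p = 6.69e-05 by edgeR), and Ccl4 fell by 1.43 on the log2 scale. Tnf fell from 383, 356 and 293 CPM to 228, 221 and 240 CPM (-0.58, SE 0.15, adjusted p = 0.0249 by edgeR). Il6 rose from 1.38, 3.52 and 6.48 CPM to 37.3, 10.1 and 11.8 CPM (2.38, SE 0.65, adjusted p = 0.0348 by edgeR). Both of these calls were lost under 5 of 16 alternatives. The list therefore did not move in 1 direction.

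**Figure D5:**
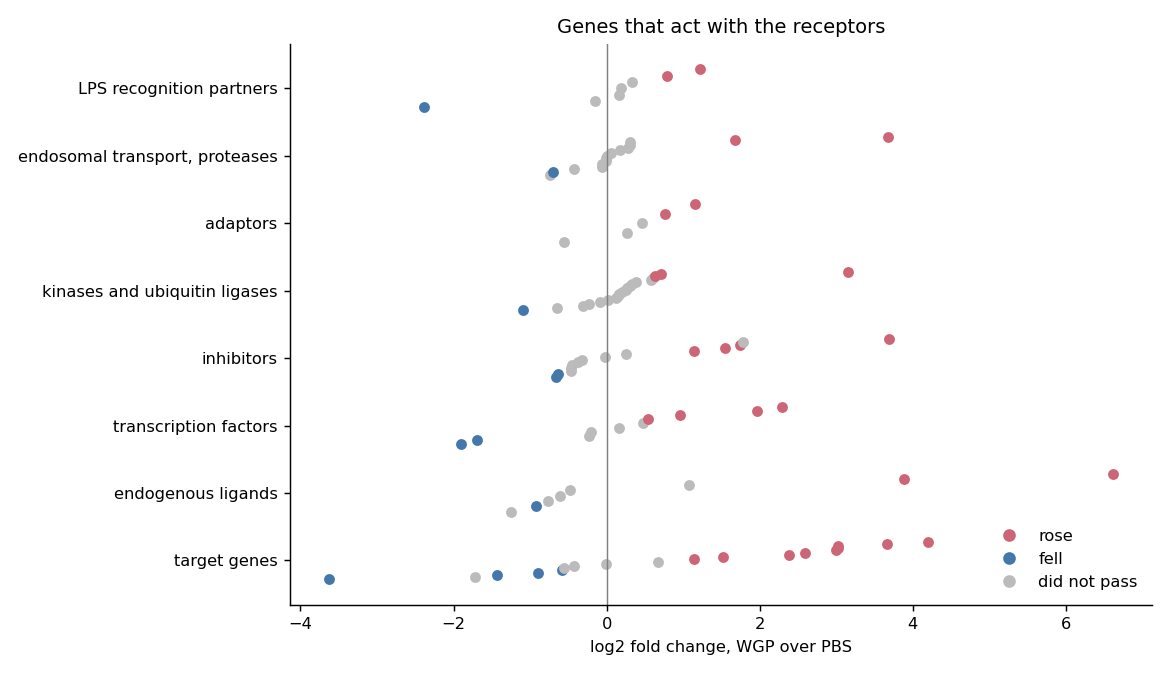
Log2 fold change of WGP over PBS (x axis) of the tested genes of the 8 lists, 1 point per gene, with genes that rose in red, genes that fell in blue and genes that did not pass in grey. The 4 genes at 0 in all libraries of a group (Sarm1, Ifnb1, Nos2 and Tnc) are left out, since their fitted folds rest on a group without counts. They stay in the counts and medians of the lists. Every list holds genes on both sides of 0.

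For the 3 members of highest mean level per kilobase, the genes of most similar pattern were sought among 8568 tested genes of at least 10 CPM on average, by Pearson's r of log2(CPM + 1) over the same 6 libraries. For Cd14 they were Irf5 (r = 0.992), Ccdc50 (0.989) and Rab20 (0.989). For Tlr2 they were Cdkn1a (0.998), Cd44 (0.997) and Mob1a (0.995). For Tlr13 they were Slc16a10 (0.998), Atp6v0a2 (0.998) and Ppargc1b (0.998). The libraries fall into 2 groups, so each r holds mainly the difference between them, and it is a description. For Tlr2 the 3 genes also shared its middle size of change, with log2 fold changes of 0.72, 0.74 and 0.58 against 0.94, while Slc16a10 and Ppargc1b rose by 2.34 and 2.07 against 1.16 for Tlr13.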

How the data were processed

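Poly-A RNA of sorted CD45+CD11b+ cells of the mouse pancreas was sequenced as single reads of 75 bases. Per the labels and the methods of the study, the authors aligned the reads to GRCm38 (mm10) with STAR 2.6 and counted them per Ensembl gene with HTSeq 0.10.0; the deposited values are raw counts, 1 column per library. The annotation release, strand setting and duplicate handling are not given in the sources used here. The most frequent low count was 19 to 41 per library, which bears on counting error.

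Symbols were taken from GENCODE vM21. The 14429 protein-coding genes whose RLE-normalized counts summed to 10 or more were tested for WGP against PBS with the quasi-likelihood test of edgeR 4.0.16 in R 4.3.3 after TMM scaling. A gene passed at p of 0.05 or less after Benjamini-Hochberg adjustment. SE is the log2 fold change over the root of F. Alternatives were RLE factors, library totals, upper-quartile scaling, the Wald test of DESeq2 1.42.0, voom of limma 3.58.1, other filters on low counts, the replicate number as a block, a term for Y-linked reads, each library left out, and counts divided by the most frequent low count. Tested on simulated data with 14429 genes, the fit found 36 of 100 genes changed 2-fold and 80 of 100 changed 4-fold.

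The members and gene lists were chosen with earlier results of these data known. Named are the 10 members, the other 3 receptor genes, up to 8 genes per list that passed, the adaptors, Ly96 and Unc93b1, the 3 most similar genes of 3 members, and markers. Tnf, Il6, Nos2 and Tnc were named after their values were seen.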

Additional observations from a re-analysis of the deposited data

How the results depend on the processing

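The results were computed again under 16 alternatives, 1 of them (counts divided by the most frequent low count) chosen after the data were seen. The difference between surface and endosomal genes stayed within 1 SD of its value under all 16 (0.757 to 0.887). These alternatives kept the same chosen receptors, and a scaling that shifts all genes alike cannot move the difference. It was 0.51 without Tlr7 and -0.10 with all 12 receptor genes, so it depends on the receptors counted. Requiring a log2 change of 1 or more in size as well left 1369 genes, 3 members that rose and 0 that fell. The number of members that fell went from 1 to 0 with limma-voom, with filterByExpr and with a term for Y-linked reads, which leaves PBS replicate 1 as the lone control, assumed to vary like the other libraries. With single libraries left out it was 0 to 1, and 4 to 8 members rose. DESeq2 called 2692 genes, and 1415 to 2184 genes passed with a library left out, against 2071. With the replicate number as a block (the replicate block), 1947 genes, 7 members that rose and 1 that fell passed. The numbers do not pair the libraries (deviations from the group means of libraries of the same number correlated at 0.0401, -0.062 and 0.0537), and the block changed no call of a member, of Tlr5, Tlr11 or Tlr12. It ended those of Sarm1, Irf5, Tnf and Il6.

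Of genes that did not pass, Tlr3 was 0.0917 without PBS replicate 1 and 0.0493 without WGP replicate 1 (range over left-out libraries -0.22 to 0.0917). Ly96 was 0.27 with the term for Y-linked reads and -0.33 to 0.11 with a library left out, and Ticam2 was 1.14 with that term (adjusted p = 0.0152 by edgeR, past the threshold) and -0.0345 to 0.56 with a library left out. The log2 fold change of Ticam1 passed with library totals (-0.66, adjusted p = 0.0355 by edgeR), and the log2 fold change of Pik3ap1 passed with DESeq2 (adjusted p = 0.0372) and with the term for Y-linked reads (adjusted p = 0.0198 by edgeR). Calls of Irak2, Tnfaip3, Hspd1, Nfkbia, Ctsk, Socs1 and Irf8 were lost under 6, 5, 3, 2, 2, 1 and 1 of the alternatives. The causes were not tested. The most frequent low count was 19 to 41 reads per library, and whether those reads are copies of 1 molecule was not tested.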
